A study of Homo sapiens with 4 samples.

Results

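The genes described are 30 effectors of the integrated stress response and the unfolded protein response, chosen by name from the 33478 rows of the expression table. Every name matched 1 protein-coding row, and all 30 averaged at least 1 TPM (a length-corrected share of all transcripts), as did 14038 rows in all, which form the genes tested. RNA was sequenced from MHCC-97H, a human hepatocellular carcinoma line. Per the labels, 2 libraries came from cells carrying a short hairpin RNA (shRNA) against UCK2, an enzyme of pyrimidine salvage, and 2 from cells carrying a control shRNA. No drug, nutrient change or stressor is named, so the cells of both groups were grown without a stated inducer of either response. The labels do not say how the hairpins were delivered, whether the lines were clones, or whether replicates were grown as separate cultures. P-values therefore describe the spread among 4 libraries, which may be technical. Both UCK2 shRNA titles also carry an unexplained letter B.

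The integrated stress response begins when kinases that sense amino acid shortage, heme shortage, viral RNA or misfolded protein phosphorylate the initiation factor eIF2. General translation is then reduced, while the factor ATF4 is made and switches on genes for amino acid synthesis, amino acid import and redox balance. The unfolded protein response shares the kinase PERK with it and adds the sensors IRE1 and ATF6, which switch on chaperones and the degradation machinery of the endoplasmic reticulum (ER), a compartment that carries a heavy load of secreted protein in hepatocytes. The members were therefore divided into 19 genes of the amino-acid response and 11 genes of the ER. ATF4 and XBP1, the factor made active by IRE1, were not analysed here.

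The targeted gene did not separate the groups. UCK2 measured 120.5 and 67.8 TPM in UCK2 shRNA replicates 1 and 2, against 135.7 and 93.6 TPM in control replicates 1 and 2, a log2 difference of -0.31 (limma adjusted p = 0.640). After the scaling described below, UCK2 shRNA replicate 1 was the highest of the 4 libraries, and the difference was -0.075 (adjusted p = 0.990). Each direction below therefore rests on the library titles, and the descriptions of UCK2 shRNA replicate 2 and control replicate 2 depart from those titles in a gene number and a cell line number. The deposited values also differed in scale. The rows used here held 32.3% and 35.7% less than the fixed total of a TPM column in the UCK2 shRNA libraries and 14.96% and 14.95% less in the controls, and the median gene differed by -0.22 on the log2 scale. Dividing each library by its median ratio to the others brought that median to -0.01, and values after this step are called scaled. Of 10 hepatoma markers, the general epithelial keratins KRT8 and KRT18 were the most abundant, with KRT8 at 2008 and 1792 TPM in the UCK2 shRNA libraries and 2250.0 and 3114 TPM in the controls. The liver markers were far lower. ALB (albumin) measured 20.1 and 18.6 TPM in the UCK2 shRNA libraries and 29.5 and 25.8 TPM in the controls, HNF4A did not exceed 34.8 TPM, and GPC3 and APOA2 were near 0 in every library. The extraction protocol mentions retinas, but 10 retina markers summed to only 1.95 and 2.61 TPM in the UCK2 shRNA libraries and 1.60 and 1.95 TPM in the controls.

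Most amino-acid response genes had their highest scaled level in UCK2 shRNA replicate 2, and fewer of the ER genes did. After scaling, 15 of 19 amino-acid response members had their highest level in UCK2 shRNA replicate 2, which was so for 30.0% of all genes tested. Of 11 ER members, 4 were highest there (36.4%). Of 7 chaperones and folding factors, 4 had their lowest scaled level there (57.1%). This was so for 30.9% of all genes tested and 41.9% of those averaging at least 10 TPM. The median deviation of the class from each gene's 4-library mean was -0.13 in UCK2 shRNA replicate 1 and 0.46 in UCK2 shRNA replicate 2, against -0.23 and -0.13 in the controls (scaled log2 units). The ER members had medians of 0.03 and 0.05 in the UCK2 shRNA libraries and 0.003 and 0.05 in the controls. The difference between the class medians within a library hardly depends on that library's scale. It was -0.15 and 0.41 in UCK2 shRNA replicates 1 and 2 and -0.23 and -0.17 in the controls (scaled), a mean of 0.13 ± 0.40 against -0.20 ± 0.04 (SD, n = 2 each).

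**Figure D1:**
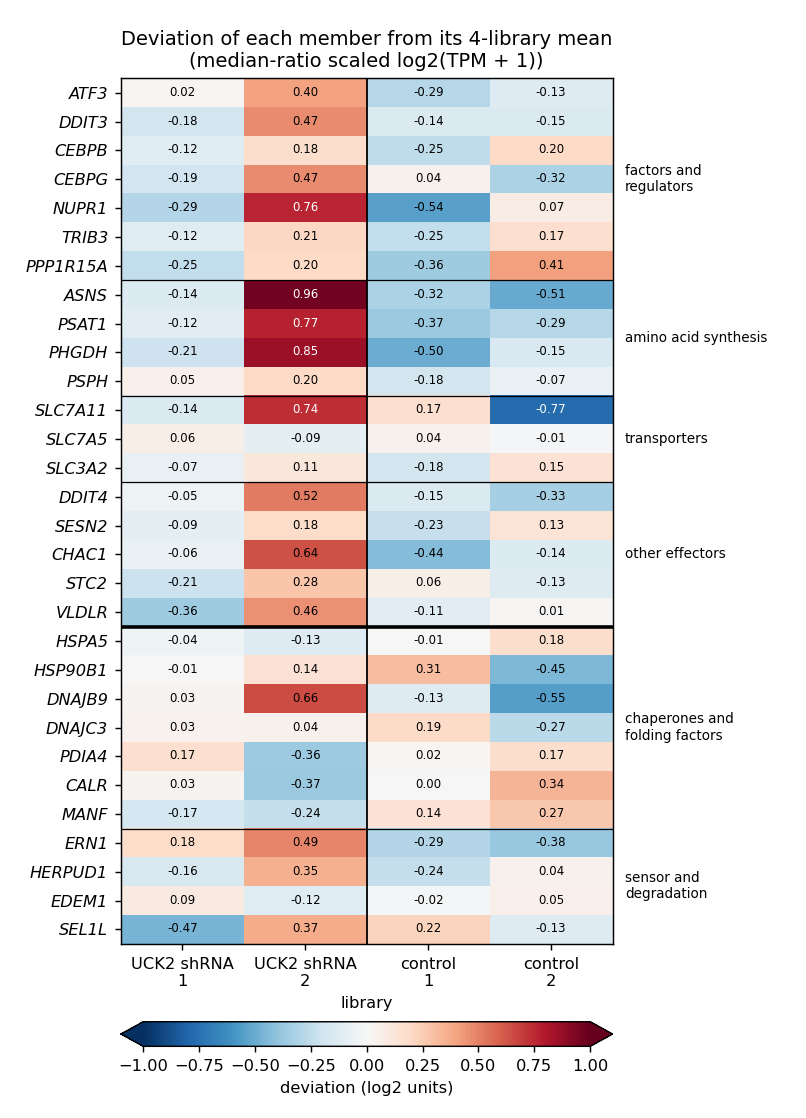
Deviation of each of the 30 members (rows, by role) from its mean over the 4 libraries (columns), in median-ratio scaled log2(TPM + 1), with red above and blue below that mean. The column of UCK2 shRNA replicate 2 is red for most amino-acid response genes, up to 0.96 for ASNS, and mixed for the chaperones, down to -0.37 for CALR.

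No member passed a test between the groups. At a limma adjusted p under 0.05, 0 of 30 members were higher or lower, and neither was any other gene (0.0% of 14038). After scaling 0 of 30 passed again, with 0.0641% of all genes higher and 0.0% lower. At an unadjusted p under 0.05, 3 members were lower as deposited (14.0% of all genes), all of them chaperones or folding factors, and 0 were higher (1.38%). After scaling 4 were higher (3.97% of all genes) and 0 lower (1.42%). With 2 libraries a group, an exact permutation test cannot give a p below 0.333.

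**Figure D2:**
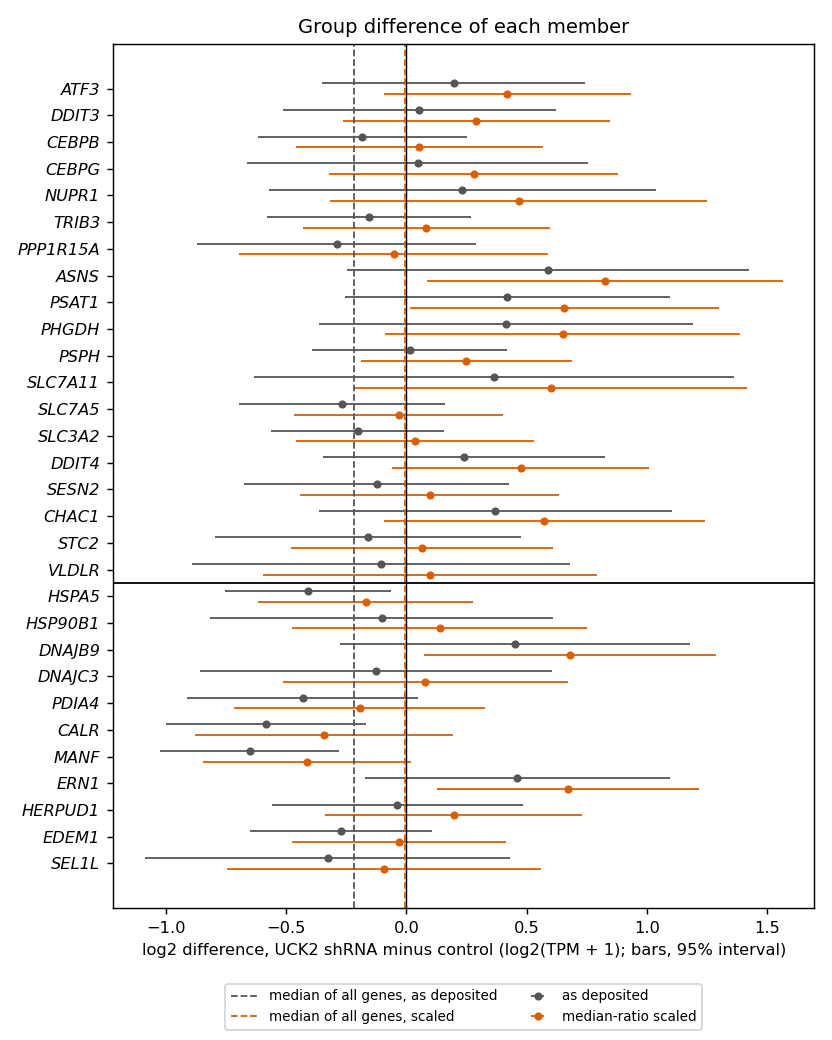
Log2 difference of each member, UCK2 shRNA minus control, with its 95% interval from limma (n = 2 each), as deposited (grey) and after median-ratio scaling (orange). Dashed lines mark the median of all genes tested, -0.22 as deposited and -0.01 scaled. The scaled interval lies wholly above 0 for ASNS, PSAT1, DNAJB9 and ERN1, and as deposited it lies wholly below 0 for HSPA5, CALR and MANF.

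Enzymes of amino acid synthesis showed the contrast most plainly. ASNS makes asparagine, and PHGDH, PSAT1 and PSPH carry out the successive steps from a glycolytic intermediate to serine. All 4 had their highest level in UCK2 shRNA replicate 2, on either scale. ASNS (ENSG00000070669, chromosome 7, 97852118 to 97872542, minus strand of hg38) measured 44.0 and 96.6 TPM in UCK2 shRNA replicates 1 and 2, against 50.1 and 37.1 TPM in control replicates 1 and 2. UCK2 shRNA replicate 2 alone was high, and UCK2 shRNA replicate 1 lay between the controls. The ASNS means were 70.3 ± 37.2 TPM in the UCK2 shRNA libraries and 43.6 ± 9.23 TPM in the controls (SD, n = 2 each), and the log2 difference was 0.59 ± 0.36 (SE, adjusted p = 0.449), or 0.82 ± 0.33 after scaling (adjusted p = 0.884).

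PSAT1 (ENSG00000135069, chromosome 9, 78297143 to 78330093) measured 72.9 and 137.2 TPM in the UCK2 shRNA libraries, against 78.8 and 70.5 TPM in the controls. Its log2 difference was 0.42 ± 0.29 (SE, adjusted p = 0.501), or 0.66 after scaling (adjusted p = 0.902). PHGDH (ENSG00000092621, chromosome 1, 119659798 to 119744215) measured 35.6 and 76.1 TPM in the UCK2 shRNA libraries, against 37.3 and 40.4 TPM in the controls, a log2 difference of 0.41 ± 0.33, or 0.65 after scaling. In both serine genes UCK2 shRNA replicate 1 lay close to the controls, so the groups overlapped as deposited. PSPH, the last enzyme of the serine route, was nearly level at 45.0 and 50.5 TPM in the UCK2 shRNA libraries and 49.3 and 45.2 TPM in the controls. Within a library the ratio of PHGDH to PSPH was 0.791 and 1.505 in the UCK2 shRNA libraries and 0.757 and 0.895 in the controls. The ratio of PSAT1 to PSPH was 1.62 and 2.72 in the UCK2 shRNA libraries and 1.60 and 1.56 in the controls. The serine enzymes thus differed from each other in UCK2 shRNA replicate 2, where PHGDH and PSAT1 were high and PSPH was not.

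Set against the mean of the other 3 libraries, the scaled level in UCK2 shRNA replicate 2 was 2.46-fold for ASNS, 2.225-fold for PHGDH, 2.05-fold for PSAT1 and 1.205-fold for PSPH. These ratios describe a library chosen after its values were seen, and no test goes with them. Among all genes tested, the deviation in that library ranked at the 98.9th percentile for ASNS, the 98.4th for PHGDH and the 97.7th for PSAT1, but only the 74.0th for PSPH. The scaled log2 difference of ASNS was 0.28 when UCK2 shRNA replicate 2 was left out and 1.38 when UCK2 shRNA replicate 1 was. PSAT1 gave 0.22 and 1.11 in the same pair of fits, and PHGDH 0.12 and 1.185. GENCODE release 29 names 4 pseudogenes after ASNS, 4 after PSAT1 and 1 after PSPH, so reads shared with such copies make these levels uncertain.

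**Figure D3:**
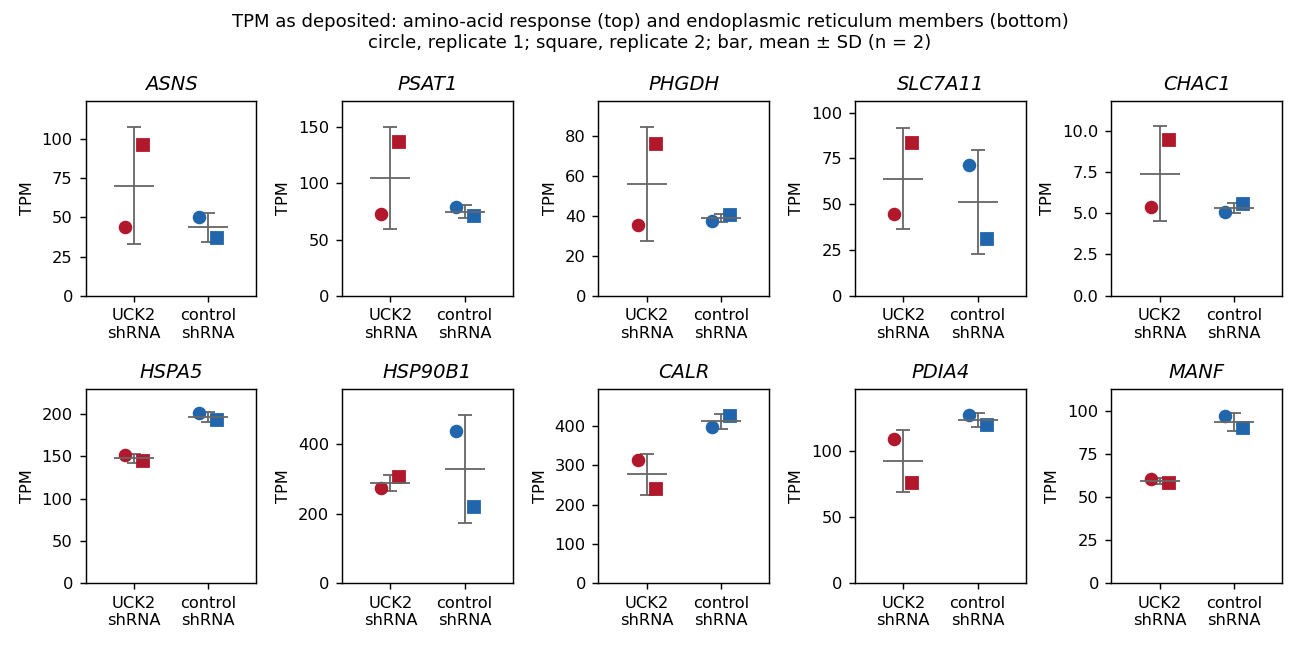
TPM as deposited for 5 amino-acid response genes (top) and 5 ER genes (bottom), with UCK2 shRNA libraries in red, left, and controls in blue, right. Circles are replicate 1, squares replicate 2, and bars the mean ± SD (n = 2). ASNS, PSAT1, PHGDH and CHAC1 have 1 high square among the red points. Both red points of HSPA5, CALR, PDIA4 and MANF lie below the blue ones. This was so as deposited for 44.4% of all genes and 62.0% of those averaging at least 10 TPM. After scaling the groups of CALR and PDIA4 overlap.

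Promoters were read for the element through which ATF4 and its partners act, the composite of a C/EBP and an ATF site. RefSeq promoters of build GRCh38.p14, from 250 bases before to 50 after each start site, were available for 16 of 19 amino-acid response members and 11 of 11 ER members. The motif TGATGNAAN, searched on both strands, was found in 4 of 16 amino-acid response promoters (ASNS, ATF3, CHAC1 and SLC3A2), in 1 of 11 ER promoters (HERPUD1) and in 3.67% of 27305 promoters. A match is a description of letters and not of a bound site. The 250 bases before the start site are shown for ASNS and CHAC1, which were among the members standing highest in UCK2 shRNA replicate 2, with capitals marking the match, which reads on the minus strand in CHAC1.
ASNS, chr7:97872409-97872658, minus strand: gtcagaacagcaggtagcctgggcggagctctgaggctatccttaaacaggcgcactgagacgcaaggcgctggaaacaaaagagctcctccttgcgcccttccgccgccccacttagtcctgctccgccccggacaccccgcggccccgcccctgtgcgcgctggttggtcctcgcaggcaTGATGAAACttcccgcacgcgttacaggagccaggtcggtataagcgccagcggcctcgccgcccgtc
CHAC1, chr15:40953221-40953470, plus strand: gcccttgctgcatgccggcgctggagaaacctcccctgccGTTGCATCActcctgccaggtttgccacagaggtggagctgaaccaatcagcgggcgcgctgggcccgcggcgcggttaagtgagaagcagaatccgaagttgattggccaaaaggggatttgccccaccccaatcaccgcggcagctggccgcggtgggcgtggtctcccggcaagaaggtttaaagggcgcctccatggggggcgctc
The ASNS match covers positions -68 to -60 and the CHAC1 match -210 to -202, counted from the start site. PSAT1, PHGDH and DDIT4 stood high in the same library and had no match in this window.

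Regulators of the response gave smaller differences than ASNS, PSAT1 and PHGDH. DDIT3, which encodes the pro-apoptotic factor CHOP, measured 86.7 and 138.8 TPM in the UCK2 shRNA libraries, against 115.1 and 97.2 TPM in the controls. The groups overlapped, since UCK2 shRNA replicate 1 was the lowest of the 4 libraries and UCK2 shRNA replicate 2 the highest. DDIT3 overlaps MARS, the methionyl-tRNA synthetase gene, on the opposite strand. MARS measured 97.01 and 136.0 TPM in the UCK2 shRNA libraries and 121.7 and 110.1 TPM in the controls, and the strand setting of the read counting is unknown. TRIB3, a pseudokinase that restrains ATF4 and CHOP, was at 100 and 127.6 TPM in the UCK2 shRNA libraries and 118.4 and 133.9 TPM in the controls, also overlapping.

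ATF3, a stress-induced repressor, measured 12.9 and 17.2 TPM in the UCK2 shRNA libraries, against 13.2 and 12.6 TPM in the controls. ATF3 gave a log2 difference of 0.20 ± 0.23 (SE, adjusted p = 0.715), or 0.42 after scaling (adjusted p = 0.955), where alone its groups did not overlap. NUPR1, a small chromatin-associated stress protein, measured 33.4 and 70.8 TPM in the UCK2 shRNA libraries, against 36.1 and 47.3 TPM in the controls. CEBPG, a partner of ATF4, measured 19.2 and 31.3 TPM in the UCK2 shRNA libraries, against 29.4 and 19.1 TPM in the controls. CEBPB ranged from 58.9 to 80.6 TPM over the 4 libraries, and PPP1R15A, which directs a phosphatase to eIF2 and so ends the response, from 41.65 to 72.6 TPM. Both were highest in control replicate 2, unlike the other 5 regulators after scaling, which were highest in UCK2 shRNA replicate 2.

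Among the transporters, SLC7A11 alone stood high in UCK2 shRNA replicate 2. SLC7A11 imports cystine and SLC7A5 imports large neutral amino acids, each as a dimer with the heavy chain SLC3A2. SLC7A11 measured 44.4 and 83.6 TPM in the UCK2 shRNA libraries, against 71.4 and 31.0 TPM in the controls. The controls were spread as widely as the UCK2 shRNA libraries and the groups overlapped, so the 2 control libraries differ more in this gene than the group means of 64.0 ± 27.7 and 51.2 ± 28.5 TPM do. SLC3A2 was the most abundant transporter, at 261 and 299.7 TPM in the UCK2 shRNA libraries against 312 and 333 TPM in the controls. SLC7A5 measured 51.7 and 46.8 TPM in the UCK2 shRNA libraries, against 65.9 and 53.6 TPM in the controls. As deposited the groups did not overlap for SLC3A2 and SLC7A5, both lower in the UCK2 shRNA libraries, with log2 differences of -0.20 and -0.27 near the median of all genes. After scaling they were 0.04 and -0.03 and the groups overlapped. GENCODE release 29 names 2 pseudogenes after SLC7A5, so its level is uncertain.

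The remaining effectors followed UCK2 shRNA replicate 2 to different degrees. CHAC1, which degrades glutathione, measured 5.375 and 9.42 TPM in the UCK2 shRNA libraries, against 5.09 and 5.54 TPM in the controls. CHAC1 gave a log2 difference of 0.37 ± 0.31 (SE, adjusted p = 0.593), or 0.57 after scaling (adjusted p = 0.951). UCK2 shRNA replicate 2 was again the high library. DDIT4, an inhibitor of mTORC1, measured 50.2 and 75.8 TPM in the UCK2 shRNA libraries, against 60.5 and 45.0 TPM in the controls, a log2 difference of 0.24 ± 0.25 (SE, adjusted p = 0.676), or 0.475 after scaling (adjusted p = 0.949). VLDLR, a lipoprotein receptor, measured 3.77 and 7.39 TPM in the UCK2 shRNA libraries, against 5.995 and 5.62 TPM in the controls, so the UCK2 shRNA libraries enclosed the controls. SESN2, another mTORC1 inhibitor, ranged from 9.43 to 12.2 TPM. STC2, a secreted glycoprotein, measured 10.65 and 15.5 TPM in the UCK2 shRNA libraries, against 16.9 and 12.4 TPM in the controls, with overlapping groups. All 5 effectors were highest in UCK2 shRNA replicate 2 after scaling, and 3 of 5 as deposited.

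Over the whole amino-acid response class the groups overlapped for most genes. After scaling, 6 of 19 members (31.6%) were higher in both UCK2 shRNA libraries than in both controls, beside 16.0% of all genes, and 0 of 19 were lower, beside 15.5%. These 6 were ATF3, ASNS, PSAT1, PSPH, DDIT4 and CHAC1. As deposited, 0 of 19 were higher (5.46% of all genes) and 2 of 19 lower (44.4%). The scaled log2 difference was above 0 in 17 of 19 members, with a median of 0.28, beside -0.01 for all genes tested. Without UCK2 shRNA replicate 2 it was above 0 in 9 of 19, and the class median was -0.03. As deposited it was above 0 in 11 of 19, with a median of 0.05, beside -0.22 for all genes.

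Of the 7 chaperones and folding factors of the ER, only DNAJB9 was highest in UCK2 shRNA replicate 2 after scaling. HSPA5 (BiP), the main ER chaperone and the repressor of the stress sensors, measured 151.3 and 143.9 TPM in the UCK2 shRNA libraries, against 200.3 and 192.3 TPM in the controls (ENSG00000044574, chromosome 9, 125234853 to 125241330, minus strand of hg38). Both UCK2 shRNA libraries lay below both controls. The means were 147.6 ± 5.18 and 196.3 ± 5.65 TPM (SD, n = 2 each), and the log2 difference was -0.41 ± 0.15 (SE, adjusted p = 0.294), or -0.17 after scaling (adjusted p = 0.955). CALR, the lectin chaperone calreticulin, measured 314 and 239 TPM in the UCK2 shRNA libraries, against 398 and 425 TPM in the controls, a log2 difference of -0.58 ± 0.18 (SE, adjusted p = 0.294), or -0.34 after scaling (adjusted p = 0.955). The groups of CALR did not overlap as deposited and overlapped after scaling.

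MANF, a secreted folding factor kept in the ER with BiP, gave the largest negative difference of the 30 members. It measured 60.6 and 58.3 TPM in the UCK2 shRNA libraries, against 97.6 and 90.3 TPM in the controls (ENSG00000145050, chromosome 3, 51385047 to 51389397). The libraries of each group lay close together and the groups did not overlap on either scale. The log2 difference of MANF was -0.65 ± 0.16 (SE, adjusted p = 0.294), or -0.41 after scaling (adjusted p = 0.918). PDIA4, a protein disulfide isomerase, measured 109.6 and 76.2 TPM in the UCK2 shRNA libraries, against 127.3 and 120.1 TPM in the controls, a log2 difference of -0.43 ± 0.20 (SE, adjusted p = 0.358), or -0.19 after scaling. Leaving out UCK2 shRNA replicate 2 brought the scaled value of PDIA4 to 0.08 and that of CALR to -0.135, while MANF stayed at -0.37.

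HSP90B1 (GRP94), an ER chaperone of the HSP90 family, measured 273 and 306 TPM in the UCK2 shRNA libraries, against 439 and 219.6 TPM in the controls. The controls were so far apart that they enclosed both UCK2 shRNA libraries. DNAJC3, an inhibitor of PERK, measured 4.93 and 5.02 TPM in the UCK2 shRNA libraries, against 7.22 and 4.18 TPM in the controls. DNAJB9, a co-chaperone of BiP, was the chaperone that stood high in UCK2 shRNA replicate 2. It measured 18.55 and 29.5 TPM in the UCK2 shRNA libraries, against 21.4 and 13.25 TPM in the controls, a log2 difference of 0.45 ± 0.31 (SE, adjusted p = 0.501), or 0.68 after scaling (adjusted p = 0.880). The protein-coding genes PNPLA8 and THAP5 overlap DNAJB9 on the opposite strand, and the strand setting of the read counting is unknown. PNPLA8 measured 11.6 and 13.35 TPM in the UCK2 shRNA libraries, against 15.55 and 7.45 TPM in the controls. THAP5 measured 11.9 and 14.55 TPM in the UCK2 shRNA libraries, against 15.5 and 8.5 TPM in the controls. After scaling both were highest in UCK2 shRNA replicate 2 and lowest in control replicate 2, as DNAJB9 was.

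Ratios of an amino-acid response gene to a chaperone within a library do not depend on that library's scale. The ratio of ASNS to HSPA5 was 0.291 and 0.671 in UCK2 shRNA replicates 1 and 2, against 0.250 and 0.193 in the controls. The ratio of PSAT1 to CALR was 0.232 and 0.573 in the UCK2 shRNA libraries, against 0.198 and 0.166 in the controls. The ratio of DDIT3 to HSPA5 was 0.573 and 0.965 in the UCK2 shRNA libraries, against 0.575 and 0.506 in the controls. All 3 ratios were highest in UCK2 shRNA replicate 2, but UCK2 shRNA replicate 1 exceeded both controls only for the pairs with ASNS and PSAT1. The genes of each ratio were named after their values were seen.

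Promoters of the ER members held other elements. The ER stress element, CCAAT and CCACG with any 9 bases between them, which ATF6 recognises together with NF-Y, was found in 3 of 11 ER promoters (HSPA5, HSP90B1 and CALR), in 0 of 16 amino-acid response promoters and in 0.0806% of all promoters, with both strands searched. Its variant, ATTGG and CCACG with any 1 base between them, was found in HERPUD1 and in 0.0549% of all promoters. The element core TGACGTGG, bound by XBP1, was found in no member promoter and in 0.795% of all promoters. The 250 bases before the start site are shown for HSPA5 and CALR, the most abundant of the chaperones lower in both UCK2 shRNA libraries as deposited, and for HERPUD1, the member with an element of each kind, with capitals marking the matches.
HSPA5, chr9:125241344-125241593, minus strand: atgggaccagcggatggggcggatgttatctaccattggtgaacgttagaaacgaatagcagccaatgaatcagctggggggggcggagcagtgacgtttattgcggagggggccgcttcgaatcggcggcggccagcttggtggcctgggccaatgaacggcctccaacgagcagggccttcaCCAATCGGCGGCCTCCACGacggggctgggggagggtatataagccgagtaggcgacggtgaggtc
CALR, chr19:12938359-12938608, plus strand: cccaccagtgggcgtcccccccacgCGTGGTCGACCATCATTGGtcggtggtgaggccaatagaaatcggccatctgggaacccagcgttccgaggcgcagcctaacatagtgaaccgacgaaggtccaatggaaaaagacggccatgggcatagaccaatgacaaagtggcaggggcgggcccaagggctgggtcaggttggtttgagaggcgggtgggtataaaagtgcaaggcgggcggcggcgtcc
HERPUD1, chr16:56931892-56932141, plus strand: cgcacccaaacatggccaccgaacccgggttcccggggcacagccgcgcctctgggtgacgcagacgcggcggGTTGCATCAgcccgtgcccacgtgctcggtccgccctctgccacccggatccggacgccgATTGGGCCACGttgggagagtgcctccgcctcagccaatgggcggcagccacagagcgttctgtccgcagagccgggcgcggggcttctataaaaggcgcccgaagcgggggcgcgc
The matches cover positions -66 to -48 in HSPA5 and -225 to -207 in CALR, the last on the minus strand. In HERPUD1 the composite element lies at -177 to -169 on the minus strand and the ER stress element variant at -117 to -107, and the matches do not overlap.

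Among the 4 sensor and degradation genes, ERN1, HERPUD1 and SEL1L were highest in UCK2 shRNA replicate 2 after scaling, as most amino-acid response genes were. The median deviation of the 4 genes was -0.04 and 0.365 in the UCK2 shRNA libraries and -0.13 and -0.04 in the controls. ERN1, which encodes the sensor IRE1, measured 7.07 and 9.08 TPM in the UCK2 shRNA libraries, against 6.26 and 4.91 TPM in the controls (ENSG00000178607, chromosome 17, 64039142 to 64130819). It was the only member whose UCK2 shRNA libraries both exceeded both controls as deposited. ERN1 gave a log2 difference of 0.46 ± 0.27 (SE, adjusted p = 0.438), or 0.67 ± 0.24 after scaling (adjusted p = 0.817). The scaled value was 0.52 with UCK2 shRNA replicate 2 left out. HERPUD1, a component of ER-associated degradation whose promoter carries both elements shown above, measured 29.6 and 43.1 TPM in the UCK2 shRNA libraries, against 36.0 and 37.4 TPM in the controls. EDEM1, which picks out misfolded glycoproteins for degradation, measured 129.1 and 113.3 TPM in the UCK2 shRNA libraries, against 155.3 and 137.6 TPM in the controls, a log2 difference of -0.27 ± 0.16 (SE, adjusted p = 0.444), or -0.03 after scaling. SEL1L, an adaptor of the degradation ligase, measured 25.0 and 45.95 TPM in the UCK2 shRNA libraries, against 52.7 and 34.8 TPM in the controls. UCK2 shRNA replicate 1 was the lowest library for SEL1L, and control replicate 1 the highest as deposited.

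As a class the ER members lay near all other genes. As deposited 5 of 11 (45.5%) were lower in both UCK2 shRNA libraries, beside 44.4% of all genes, and 1 of 11 was higher (9.09%), beside 5.46%. After scaling 2 of 11 (18.2%) were lower, HSPA5 and MANF, beside 15.5% of all genes, and 2 of 11 were higher, DNAJB9 and ERN1, beside 16.0%. The median log2 difference of the 11 members was -0.27 as deposited and -0.03 scaled, beside -0.22 and -0.01 for all genes tested.

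Other genes of the pathways were read from lists that do not overlap the members. These lists were also chosen with earlier results of these data known, so they are not an independent check. Of 18 other amino-acid response genes tested, 0 passed the limma threshold on either scale, and 14 had their highest scaled level in UCK2 shRNA replicate 2 (77.8%, beside 30.0% of all genes). CTH, the enzyme that makes cysteine from cystathionine, measured 4.87 and 9.84 TPM in the UCK2 shRNA libraries, against 4.99 and 4.43 TPM in the controls, with a scaled log2 difference of 0.69 (adjusted p = 0.918). SLC6A9, a glycine transporter, measured 2.44 and 9.37 TPM in the UCK2 shRNA libraries, against 4.98 and 4.13 TPM in the controls. GARS, the glycyl-tRNA synthetase, measured 95.1 and 125.4 TPM in the UCK2 shRNA libraries, against 110.5 and 79.85 TPM in the controls, a scaled difference of 0.45 (adjusted p = 0.920). CTH and SLC6A9 thus had the same single high library as ASNS. In this list the median deviation was -0.11 and 0.305 in the UCK2 shRNA libraries and -0.14 and -0.01 in the controls.

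Of 13 sensors and factors tested, 0 passed on either scale and the scaled median log2 difference was 0.02. After scaling, 5 of 13 were highest in UCK2 shRNA replicate 2 (38.5%, beside 30.0% of all genes). ATF5, a factor close to ATF4, measured 65.2 and 114.8 TPM in the UCK2 shRNA libraries, against 71.7 and 81.25 TPM in the controls. The eIF2 kinase genes EIF2AK1 and EIF2AK3 measured 85.1 and 68.5 TPM and 4.45 and 7.58 TPM in the UCK2 shRNA libraries, against 117.6 and 97.5 TPM and 6.24 and 4.81 TPM in the controls. ATF5 and EIF2AK3, which encodes PERK, were highest in UCK2 shRNA replicate 2, whereas EIF2AK1 was lowest there.

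Of 16 other ER genes tested, 0 passed the threshold on either scale, while 8 had an unadjusted p under 0.05 as deposited, all lower, and 0 after scaling. As deposited 14.0% of all genes were lower at that p, as were 1849 of the 7562 genes averaging at least 10 TPM. The groups did not overlap for 13 of 16, all lower, as deposited (81.2%, beside 44.4% of all genes and 62.0% of those averaging at least 10 TPM) and for 6 lower and 1 higher after scaling. The 6 are 37.5%, beside 15.5% of all genes and 20.3% of those averaging at least 10 TPM. The 1 higher gene is 6.25%, beside 16.0% of all genes and 9.57% of those averaging at least 10 TPM. SERP1, a small protein that stabilises nascent membrane proteins, measured 97.7 and 96.0 TPM in the UCK2 shRNA libraries, against 143.2 and 157 TPM in the controls, a log2 difference of -0.625 (adjusted p = 0.294), or -0.39 scaled. DERL1, of the export channel for degradation, measured 73.5 and 62.3 TPM in the UCK2 shRNA libraries, against 105.9 and 106.7 TPM in the controls, with a log2 difference of -0.64 (adjusted p = 0.294), or -0.41 scaled. OS9, a lectin of the same degradation route, measured 130.7 and 130.5 TPM in the UCK2 shRNA libraries, against 192.7 and 174.5 TPM in the controls, with a log2 difference of -0.49, or -0.25 scaled. In these 3 genes both UCK2 shRNA libraries lay below both controls on either scale, as in HSPA5 and MANF.

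**Figure D4:**
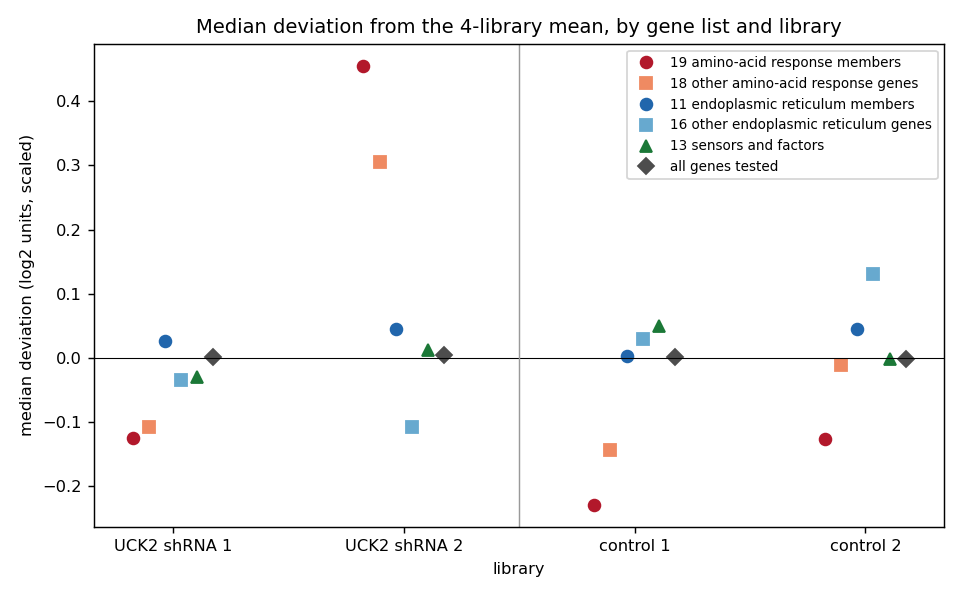
Median deviation from the 4-library mean (vertical axis, scaled log2 units) in each library (horizontal axis) for the member classes (circles), the other pathway genes (squares and triangles) and all genes tested (diamonds). Both amino-acid response lists stand apart in UCK2 shRNA replicate 2, at 0.46 and 0.305, while the other ER genes are at -0.11 there and all genes at 0.004.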

How the data were processed

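RNA of MHCC-97H cells was sequenced in 4 libraries, 2 per group by their titles. The authors deposited TPM values with 1 row per gene. Per the submitters' processing notes, edgeR, DESeq, HTSeq, TopHat2 2.0.14 and hg38 were used, with no roles stated, and no source used here gives the step from reads to TPM. Depth cannot be recovered from TPM, which leaves counting error unstated. Genes averaging at least 1 TPM were fitted on log2(TPM + 1), which understates changes of low genes, with limma 3.58.1 in R 4.3.3 (lmFit, eBayes with trend, two-sided). Benjamini-Hochberg adjustment ran over all 14038 genes. Fits were tested on simulated data with 2 libraries a group. The smallest changes tried were not recovered, and larger ones only in part. A missed threshold therefore does not show equal levels. TPM values are not counts, so no count test was run. Median-ratio factors were 0.918 and 0.928 for the UCK2 shRNA libraries and 1.186 and 1.003 for the controls. Per-library values are TPM as deposited unless called scaled. Full values go to members with an unadjusted p under 0.05 or without group overlap on either scale, and to the 2 most abundant of each role. PHGDH, NUPR1, CEBPG, SLC7A11, VLDLR, DNAJC3, HERPUD1, SLC6A9, EIF2AK3 and MTHFD2, and the examples from the pathway lists, were added after their values were seen. The symbols ERO1B and SELENOS were matched by identifier. Members and lists were chosen with earlier results of these data known, so no list was tested. Alternatives were other scalings, pseudocounts, filters, a variance model without trend, a block on the replicate number, and libraries left out in turn. Figures were drawn with matplotlib 3.10.9.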

Additional observations from a re-analysis of the deposited data

How the results depend on the processing

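No member was called under any alternative run, except MANF (adjusted p = 0.0323) and CALR (adjusted p = 0.0199), lower under a crossed pairing chosen after seeing the data. Over all genes, limma called 0 higher and 0 lower, with 194 and 1962 at an unadjusted p under 0.05. Median-ratio scaling called 9 higher and quantile normalization 8, and neither called any lower. The replicate block called 29 higher and 10 lower, and the block with scaling 98 and 23. Same-numbered libraries deviated in opposite directions (r = -0.21 across 14038 genes, which are not independent). With 2 libraries a group this cannot show whether same-numbered libraries were prepared together, and the labels do not say. The crossed pairing called 91 higher and 636 lower, or 13 and 0 with scaling. Leaving out a library gave 0 to 242 higher and 0 to 108 lower. Without control replicate 1 there were 242 and 108 (23 and 1 scaled), without control replicate 2 there were 32 and 21 (21 and 3 scaled), and without either UCK2 shRNA replicate 0 and 0.

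The amino-acid response median, 0.047 as deposited, was 0.406 with columns rescaled to equal totals and 0.385 without the 50 most abundant genes. Leaving out a library gave -0.266 to 0.385, or -0.033 to 0.614 after scaling, with both low ends without UCK2 shRNA replicate 2. The ER median, -0.271 as deposited, was -0.032 with median-ratio scaling, alone or with the replicate block, 0.096 with equal totals, 0.078 without the 50 most abundant genes and 0.009 with quantile normalization. Leaving out a library gave -0.460 to -0.064. After scaling it was 0.088 and 0.069 without UCK2 shRNA replicates 1 and 2, and 0.054 and -0.105 without control replicates 1 and 2. The difference between the classes, 0.339, ranged from -0.021 to 0.534, or -0.036 to 0.544 after scaling, and was negative without UCK2 shRNA replicate 2. Of 19 amino-acid response members, 17 were above 0 after scaling and 9 to 18 leaving out a library. As deposited 11 were above 0, and 3 to 15 leaving out a library. Both low ends came without UCK2 shRNA replicate 2.

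Among 21 genes with a printed difference, 12 of 231 values turned sign, all under another scaling. The filters, the variance model and the replicate block leave a log2 difference unchanged, so many of the 231 could not turn. SLC7A5 was 0.095 with equal totals, 0.078 without the 50 most abundant genes and 0.065 with quantile normalization. EDEM1 was 0.096, 0.078 and 0.125 in those 3 scalings, and SLC3A2 was 0.165, 0.147 and 0.207. SLC3A2 was also 0.037 with median-ratio scaling, alone or with the replicate block, and HSPA5 was 0.009 with quantile normalization. Leaving out a library gave -0.032 to 0.871 for PSAT1, -0.123 to 0.952 for PHGDH, -0.069 to 0.096 for PSPH, -0.055 to 0.530 for DDIT4 and -0.018 to 0.447 for GARS. After scaling, SLC7A5 (0.051), PDIA4 (0.079) and EDEM1 (0.074) were above 0 without UCK2 shRNA replicate 2, SLC3A2 (0.213) and EDEM1 (0.011) without control replicate 2, and SLC3A2 (0.133) without UCK2 shRNA replicate 1. The causes were not tested. TPM gives no depth, and 2 libraries a group limit every comparison.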

Other observations

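MTHFD2, a mitochondrial folate enzyme often listed with the amino-acid response, was listed at 0.0461 and 0.0826 TPM in the UCK2 shRNA libraries and 0.0356 and 0.151 TPM in the controls. These values alone do not show that MTHFD2 was not expressed. SHMT2, which acts just before MTHFD2, measured 198.2 and 234.3 TPM in the UCK2 shRNA libraries and 222.9 and 235.0 TPM in the controls. PYCR1, an enzyme of proline synthesis, measured 1.18 and 2.46 TPM in the UCK2 shRNA libraries and 2.81 and 2.53 TPM in the controls.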
